A study of Mus musculus with 6 samples.

Results

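Fap, Timp3, Sparc and Dcn encode secreted or cell-surface proteins that cut, protect or organise the extracellular matrix, and all are better known from fibroblasts and other stromal cells than from blood stem cells. These 4 genes, of 10366 with a probe set annotated to a single symbol, were selected on their measured difference between the arrays labelled Zeb2-KO and WT, so that difference is given below as a description and was not tested. Each is read by 1 probe set. What was tested is the behaviour of their relatives, binding partners and substrates, chromosome neighbours and the markers of other cells. Chromosome position was not used to choose the genes. The lists of relatives, partners and markers were chosen with earlier results of these data known, so their counts are not independent tests.

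The samples were bone marrow cells sorted as LKS-Slam, a gate on Kit, Sca-1 and SLAM surface antigens that enriches for hematopoietic stem cells. The group labelled Zeb2-KO came from Zeb2 fl/fl Mx1-Cre mice, given in the labels as Zeb2Δ/Δ Mx1-Cre, and the control group from C57Bl/6 WT mice. Mice of both groups received pIC, an inducer of interferon, at 6 weeks of age, and marrow was taken 8 weeks later at 14 weeks, with 3 arrays per group, described as separate biological replicates. Mx1-Cre is driven by an interferon-responsive promoter and is not restricted to stem cells. The labels do not give the strain of the floxed line or place Mx1-Cre or floxed alleles in the controls, so loss of Zeb2 and any other difference between the lines cannot be told apart.

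Fibroblast activation protein (Fap) is a membrane-bound serine protease of the dipeptidyl peptidase family that cleaves after proline and acts on denatured collagen. Timp3 is a tissue inhibitor of metalloproteases that stays bound to the matrix and blocks both matrix metalloproteases and ADAM sheddases. Sparc (osteonectin) is a collagen-binding matricellular protein of bone and is also carried in platelet granules, and decorin (Dcn) is a small leucine-rich proteoglycan that decorates collagen fibrils and binds TGF-beta. ZEB2, the factor deleted by design, is a zinc-finger repressor that binds E-box sequences containing CACCT and is known for its role in epithelial-mesenchymal transition.

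Because ZEB2 recognises CACCT-type E-boxes, the start regions of the members were searched for the longer form CACCTG, on both strands (CAGGTG on the printed strand being the same motif read from the other). RefSeq start windows (GRCm38.p6) were matched for 2 of the 4 genes, Timp3 and Sparc, and not for Fap and Dcn. The printed sequences run 5′ to 3′ on the gene's strand, with the motif in capitals. The Timp3 sequence covers the 250 bases before its start, on the plus strand at chr10:86300162-86300411, and the Sparc sequence the 250 bases before its start and 5 bases after it, on the minus strand at chr11:55420076-55420330.
Timp3: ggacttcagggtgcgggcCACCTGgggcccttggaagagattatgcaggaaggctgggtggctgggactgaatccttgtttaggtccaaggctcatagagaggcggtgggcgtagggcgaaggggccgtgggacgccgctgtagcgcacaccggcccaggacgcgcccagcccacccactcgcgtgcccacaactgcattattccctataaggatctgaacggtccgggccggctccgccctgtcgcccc
Sparc: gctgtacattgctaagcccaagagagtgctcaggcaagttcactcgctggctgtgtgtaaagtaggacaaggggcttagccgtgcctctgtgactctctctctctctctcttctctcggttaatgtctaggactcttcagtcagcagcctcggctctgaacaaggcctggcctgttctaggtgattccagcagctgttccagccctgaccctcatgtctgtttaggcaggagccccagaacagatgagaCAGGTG
The Timp3 window held the motif once, at -232 to -227 from the start, and the Sparc window once, across the start at -1 to 5. The shorter CACCT, which is contained in the longer motif, had 1 match in the Timp3 window and 2 in the Sparc window, the other Sparc match lying at -72 to -68. Of 32851 such windows of 300 bases, 20.2% held CACCTG and 51.9% held CACCT on either strand, so a match in these windows is common. Timp3 and Sparc, the only members searched, were picked on differences of opposite sign, given below, and nothing is read from that here. Binding of ZEB2 to these windows was not tested.

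The targeted gene, Zeb2, was read first. Its log2 intensities were 7.79, 9.13 and 8.96 in Zeb2-KO replicates 1 to 3 and 6.58, 7.51 and 7.34 in the WT replicates 1 to 3. It was therefore higher, not lower, in the group labelled as deleted, by 1.48 (SE 0.40, limma adjusted p = 0.581), and since the removed exons are not named, this probe set does not check the deletion. Every direction below rests on the labels alone. Of 14610 probe sets in the fit, 2 had an adjusted p under 0.05 (0.0137%). One is that of Fap, from which nothing is read since Fap was picked on this contrast, and the other has no symbol. At an unadjusted p under 0.05 there were 1025 (7.02%), of which 831 (5.69%) were higher and 194 (1.33%) lower, a split of 81.1% higher that was 70.1% of 919 after quantile normalization. The size and sign of the difference went with signal level. The median difference was 0.18 among the 7305 brighter probe sets, those with a mean not below the median mean of 6.63, and -0.23 among the 7305 dimmer ones. The interquartile range of log2 values was 1.83 to 2.40 over the arrays labelled Zeb2-KO but 1.59 to 2.03 over WT. Zeb2-KO replicate 1 and WT replicate 1 had summed intensities of 3 Y-linked genes of 243 and 106, against 44.3 to 52.9 in the other arrays, and WT replicate 1 correlated least with the others (mean r 0.841, against 0.886 to 0.908). Of the gate genes, Kit stood at 10.18 ± 0.047 (arrays labelled Zeb2-KO) against 9.65 ± 0.57 (WT, SD, n = 3), and Slamf1 at 8.54 ± 0.41 and 7.24 ± 1.28.

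Fap was the member that differed most, with little spread within either group. Its log2 intensities were 8.59, 8.84 and 8.71 in Zeb2-KO replicates 1 to 3, and 5.17, 5.54 and 5.66 in the WT replicates 1 to 3. On the linear scale this is 385, 459 and 419 intensity units against 36.1, 46.5 and 50.7. The groups were far apart, with a gap of 2.93 on the log2 scale between the lowest array labelled Zeb2-KO and the highest WT array, while the values within a group spanned 0.25 and 0.49. The group means were 8.71 ± 0.13 and 5.46 ± 0.26 (SD, n = 3), a difference of 3.26 or 9.55-fold, and 4 of the 14610 probe sets had a larger one. No single array carried this difference, which lay between 3.11 and 3.36 when any 1 array was left out and at 3.18 without both arrays with raised Y-linked signal.

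Timp3 was also higher in the arrays labelled Zeb2-KO, but with more spread among them. Its log2 intensities were 8.44, 9.26 and 7.97 in Zeb2-KO replicates 1 to 3, and 6.71, 6.44 and 6.37 in the WT replicates 1 to 3. Zeb2-KO replicate 2 was the highest array and replicate 3 the lowest of its group, still 1.26 above the highest WT array. The means were 8.56 ± 0.65 and 6.51 ± 0.18 (SD, n = 3), a difference of 2.05 or 4.14-fold, which was 1.70 without Zeb2-KO replicate 2 but 2.34 without replicate 3 of that group. The span of 1.29 within the arrays labelled Zeb2-KO compares with 0.34 within WT.

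Sparc lay lower in the arrays labelled Zeb2-KO, and here the spread was in the controls. Its log2 intensities were 6.57, 6.67 and 6.47 in Zeb2-KO replicates 1 to 3, and 6.95, 7.27 and 8.47 in the WT replicates 1 to 3. The groups did not overlap, but only 0.28 separated them, and WT replicate 3 stood 1.20 above the next WT array. The means were 6.57 ± 0.10 and 7.56 ± 0.80 (SD, n = 3), a difference of -0.99, which was -0.54 without WT replicate 3 and -1.30 without WT replicate 1.

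Dcn was the dimmest member and the one whose groups overlapped. Its log2 intensities were 5.76, 5.36 and 5.42 in Zeb2-KO replicates 1 to 3, and 6.12, 5.68 and 6.55 in the WT replicates 1 to 3. Zeb2-KO replicate 1 lay above WT replicate 2, and WT replicate 3 was again the highest array. The means were 5.51 ± 0.22 and 6.12 ± 0.44 (SD, n = 3), a difference of -0.60, which was -0.38 without WT replicate 3 and -0.32 with the array interquartile range as a covariate. Its mean over all arrays, 5.82, lay below the median mean level of 6.63, where the median probe set differed by -0.23. The other members lay at or above that level over all arrays. For Fap and Timp3 this came from the arrays labelled Zeb2-KO, since their WT means, 5.46 and 6.51, lay below it.

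**Figure D1:**
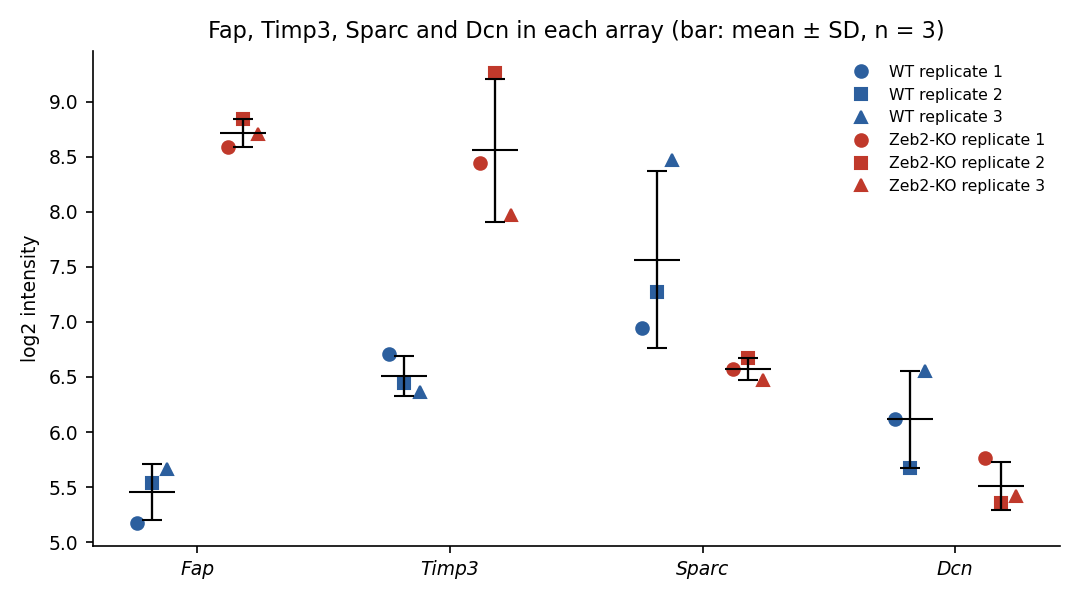
Log2 intensity of Fap, Timp3, Sparc and Dcn in each of the 6 arrays, with points for single arrays (shape gives the replicate number) and bars for the mean ± SD of 3 arrays per group. Fap and Timp3 sit higher in all 3 arrays labelled Zeb2-KO, Sparc sits lower with WT replicate 3 apart at 8.47, and the Dcn groups overlap.

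Counted over the members, the groups did not overlap in 2 that were higher (Fap and Timp3) and 1 that was lower (Sparc). Over all tested probe sets 6.9% were higher and 6.26% lower without overlap, and since the members were picked on this contrast nothing is read from their count. Between members, profiles were set side by side as the root mean square difference over the 6 arrays of log2 values centred on each gene's mean, where smaller means more alike. Sparc and Dcn were closest, at 0.41, followed by Fap and Timp3, at 0.73. Pairs with 1 gene from each direction lay at 1.42 to 2.15. That pairs of the same direction lie closer follows from the choice of genes. The measure is not scaled, so it also follows the size of each gene's difference.

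The relatives of Fap were read from a list of 14 prolyl-cleaving peptidases and their inhibitor, of which 8 were measured. None passed the adjusted threshold (limma), and at an unadjusted p under 0.05 there was 1 higher and 0 lower, or 12.5%, against 7.02% of all probe sets. That count was 0 with the array interquartile range as a covariate, without both arrays with raised Y-linked signal, and when WT replicate 1, WT replicate 3 or Zeb2-KO replicate 2 was left out, and 2 when WT replicate 2 was. The list's median difference was 0.23, against -0.089 over all probe sets, and it was -0.21 with the array interquartile range as a covariate. Its 3 genes below the median level had a median of -0.12 and the others 0.39, against -0.23 and 0.18 over all such probe sets. The 1 gene past an unadjusted p of 0.05 was Dpp4, the closest relative of Fap. It is a serine protease also known as CD26 that trims chemokines such as CXCL12. Its log2 intensities were 7.45, 8.05 and 7.38 in Zeb2-KO replicates 1 to 3 and 6.11, 7.47 and 6.34 in the WT replicates 1 to 3, a difference of 0.99 (SE 0.39, adjusted p = 0.662). Unlike in Fap, the Dpp4 groups overlapped, since WT replicate 2 exceeded Zeb2-KO replicates 1 and 3. The cytosolic prolyl peptidases Prep and Dpp8 differed by 0.39 (adjusted p = 0.673) and 0.50 (adjusted p = 0.673), and Dpp8 lay at -0.18 with the array interquartile range as a covariate.

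Dpp4 is also a neighbour of Fap on chromosome 2, where Zeb2 lies as well. In RefSeq order (GRCm38.p6) 179 genes lie between Zeb2 and Fap, 31 of them measured by a single-symbol probe set. Of these 31, none passed the adjusted threshold (limma), and 3 were higher and 0 lower at an unadjusted p under 0.05 (9.68%, against 7.02% of all probe sets). They were Zeb2os, the antisense gene beside Zeb2, at 1.04 (SE 0.31, adjusted p = 0.606), Orc4, a subunit of the origin recognition complex, at 0.63 (SE 0.27), and Dpp4. The median of the 31 was -0.035, and they ran from -0.54 to 1.04. Fap, at 3.26, was picked on this contrast and 4 of the 14610 probe sets exceeded it. Its distance from these genes is therefore not read as a result. Gcg, the glucagon gene and nearest measured neighbour on the Zeb2 side, differed by -0.37 (adjusted p = 0.673), and Gca, which encodes the calcium-binding protein grancalcin and is nearest on the other side, by 0.34 (SE 0.54, adjusted p = 0.754), with -0.18 without WT replicate 1. Among the 10 measured genes around Fap, Dpp4 was the 1 past an unadjusted p of 0.05.

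**Figure D2:**
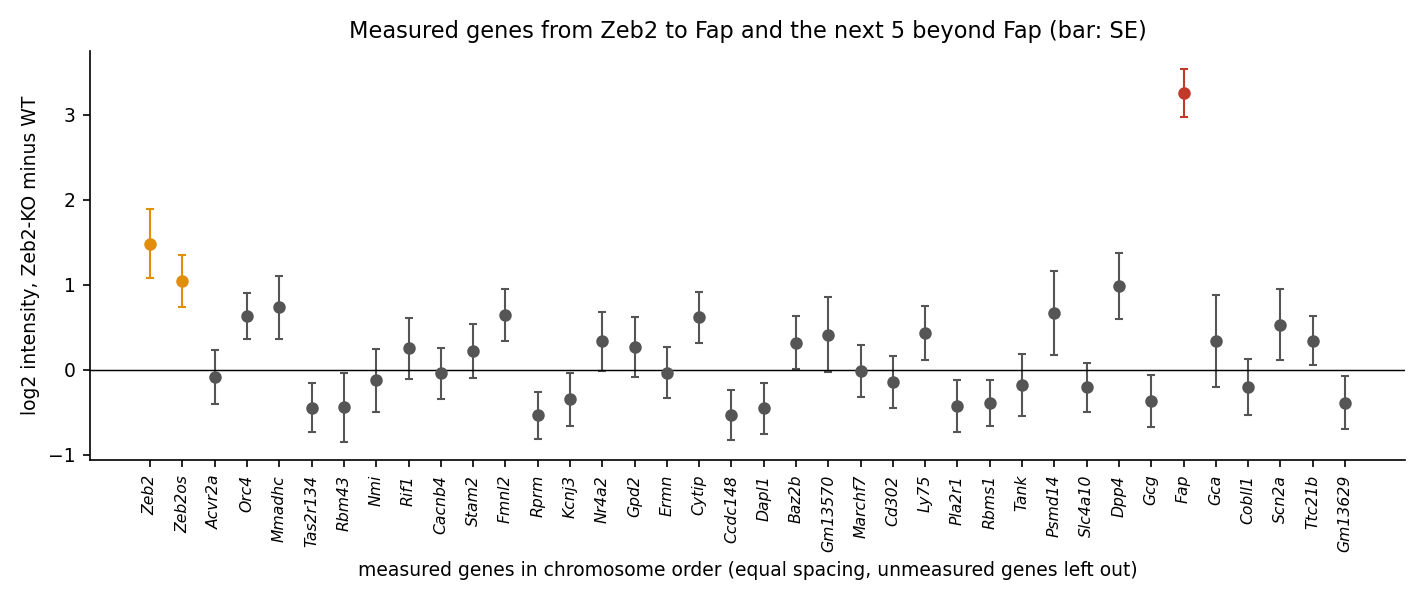
Difference in log2 intensity, Zeb2-KO minus WT, of the measured genes from Zeb2 (orange, with Zeb2os) to Fap (red) and the next 5 beyond it, in chromosome order with equal spacing and bars for limma's SE. Fap, picked on this contrast, stands at 3.26, and the 31 genes between Zeb2 and Fap lie between -0.54 and 1.04.

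The other members' neighbours were read the same way. None of the 10 measured genes around Timp3 passed an unadjusted p of 0.05 in the limma fit, and their median difference was 0.32. The nearest were Syn3, a synapsin gene, at -0.49, and Gm5174, at 0.011. Around Sparc the 1 gene past that p was Ccdc69 (-0.92, SE 0.31, adjusted p = 0.656), and the nearest genes Fat2, an atypical cadherin, and Atox1, a copper chaperone, lay at -0.36 and -0.095. Around Dcn, on the same chromosome as Timp3, the small leucine-rich proteoglycan genes Lum, Kera and Epyc follow each other, at -0.22, -0.31 and -0.39, and Btg1, an antiproliferative gene on the other side, at -0.23. None of the 10 around Dcn passed an unadjusted p of 0.05. Of these 10, 3 lay above 0, and they ran from -0.51 to 1.52 with a median of -0.20. All 3 proteoglycan neighbours were dim, with WT means of 4.31 to 4.95, in the range of signal where the median probe set differed by -0.23. Over the 40 neighbours of the 4 members, 1 was higher and 1 lower at an unadjusted p under 0.05, or 5.0%, and none passed after adjustment.

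What Timp3 inhibits was measured in part. Of 50 listed TIMPs, metalloproteases and TIMP3-binding genes, 24 had a single-symbol probe set, and none passed the adjusted threshold (limma). At an unadjusted p under 0.05 there was 1 higher and 0 lower (4.17%, against 7.02%). That count was 0 after quantile normalization, with the array interquartile range as a covariate and without WT replicate 1, Zeb2-KO replicate 2 or Zeb2-KO replicate 3, and 2 without Zeb2-KO replicate 1. The median difference was -0.18, with 17 of the 24 below the median level. The 1 was Adam17, the sheddase that releases TNF and a principal target of TIMP3, with log2 intensities of 7.56, 7.91 and 7.88 in Zeb2-KO replicates 1 to 3 and 6.56, 7.47 and 7.15 in the WT replicates 1 to 3. The groups did not overlap, although Zeb2-KO replicate 1 and WT replicate 2 lay close together, and the difference was 0.72 (SE 0.32, adjusted p = 0.673). Adam10, the related sheddase known for cleaving Notch, differed by 0.73 (SE 0.36, adjusted p = 0.673), also without overlap. Of the 24 genes, 2 were higher and 2 lower without overlap, against 6.9% higher and 6.26% lower of all probe sets, so nothing is read from this. The secreted protease gene Adamts20 lay at -0.47 (adjusted p = 0.673), the gelatinase Mmp9 at -0.19 and the other measured inhibitor, Timp4, at -0.056. The signs of Mmp9 and Timp4 turned with the array interquartile range as a covariate, to 0.011 and 0.35, and Timp4 also lay at 0.092 after quantile normalization. Timp1, Timp2, Mmp2 and Mmp14 were not analysed here.

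The relatives of Sparc were nearly all dim. Of 29 listed members of the SPARC family and other matricellular proteins 9 were measured, and none passed the adjusted threshold (limma) or an unadjusted p of 0.05. All 9 were lower, with a median of -0.26 and a range of -0.45 to -0.14, and 8 of them were below the median level, where the background median was -0.23. The smallest p values were those of the TGF-beta-induced matrix gene Tgfbi (-0.45), Tnr, a tenascin (-0.39), and Ccn5, a matricellular signalling gene (-0.38), all at an adjusted p of 0.673. Sparcl1 (hevin), the closest relative of Sparc, lay at -0.16 (adjusted p = 0.790). Sparc itself, at -0.99, was picked on this contrast, so its distance from these genes is not read as a result.

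Of 33 genes in the decorin list, which holds small leucine-rich proteoglycans, TGF-beta ligands, receptors and other decorin partners, 18 were measured. None passed the adjusted threshold (limma), and 1 was higher and 1 lower at an unadjusted p under 0.05 (11.1%, against 7.02%), with a median of -0.21. The higher count was 2 without Zeb2-KO replicate 1 and 0 without any other single array except WT replicate 2, and the lower count was 0 without WT replicate 2, WT replicate 3, Zeb2-KO replicate 1 or Zeb2-KO replicate 2. With the array interquartile range as a covariate it was 0 higher and 2 lower, and without both arrays with raised Y-linked signal 2 higher and 1 lower. The lower one was Bgn (biglycan), the proteoglycan most like decorin, with log2 intensities of 5.66, 5.68 and 6.28 in Zeb2-KO replicates 1 to 3 and 6.28, 7.05 and 7.12 in the WT replicates 1 to 3. Its difference of -0.94 (SE 0.33, adjusted p = 0.656) was larger than that of Dcn, and the groups met, since Zeb2-KO replicate 3 and WT replicate 1 both stood at 6.28. The higher one was Igf1r, the insulin-like growth factor 1 receptor, which decorin can bind, at 0.70 (SE 0.30, adjusted p = 0.673). Ltbp1, which holds latent TGF-beta in the matrix, lay at 0.64 (adjusted p = 0.673).

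Collagen, the partner of both Sparc and Dcn, was represented by 19 of 37 listed genes of collagen chains and collagen processing. None passed the adjusted threshold (limma), and 2 were higher and 0 lower at an unadjusted p under 0.05 (10.5%, against 7.02% of all probe sets). The count of higher genes was 0 with the array interquartile range as a covariate and without WT replicate 1, Zeb2-KO replicate 2 or Zeb2-KO replicate 3, and 1 without WT replicate 2 or 3. Both are enzymes of the endoplasmic reticulum and not matrix proteins, namely P4hb, protein disulfide isomerase (0.83, SE 0.31, adjusted p = 0.662), and P3h2, a prolyl 3-hydroxylase (0.90, SE 0.36, adjusted p = 0.668). The list's median was -0.32, with the collagen chaperone Serpinh1 at -0.48 (adjusted p = 0.673) and Col3a1 at -0.42 (adjusted p = 0.673). Its 10 genes below the median level had a median of -0.27 and the others -0.33, against -0.23 and 0.18 over all such probe sets. Brighter genes of the metalloprotease and decorin lists had medians of -0.0235 and 0.49. With the array interquartile range as a covariate the medians of the metalloprotease, decorin and collagen lists were 0.016, 0.046 and -0.024.

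**Figure D3:**
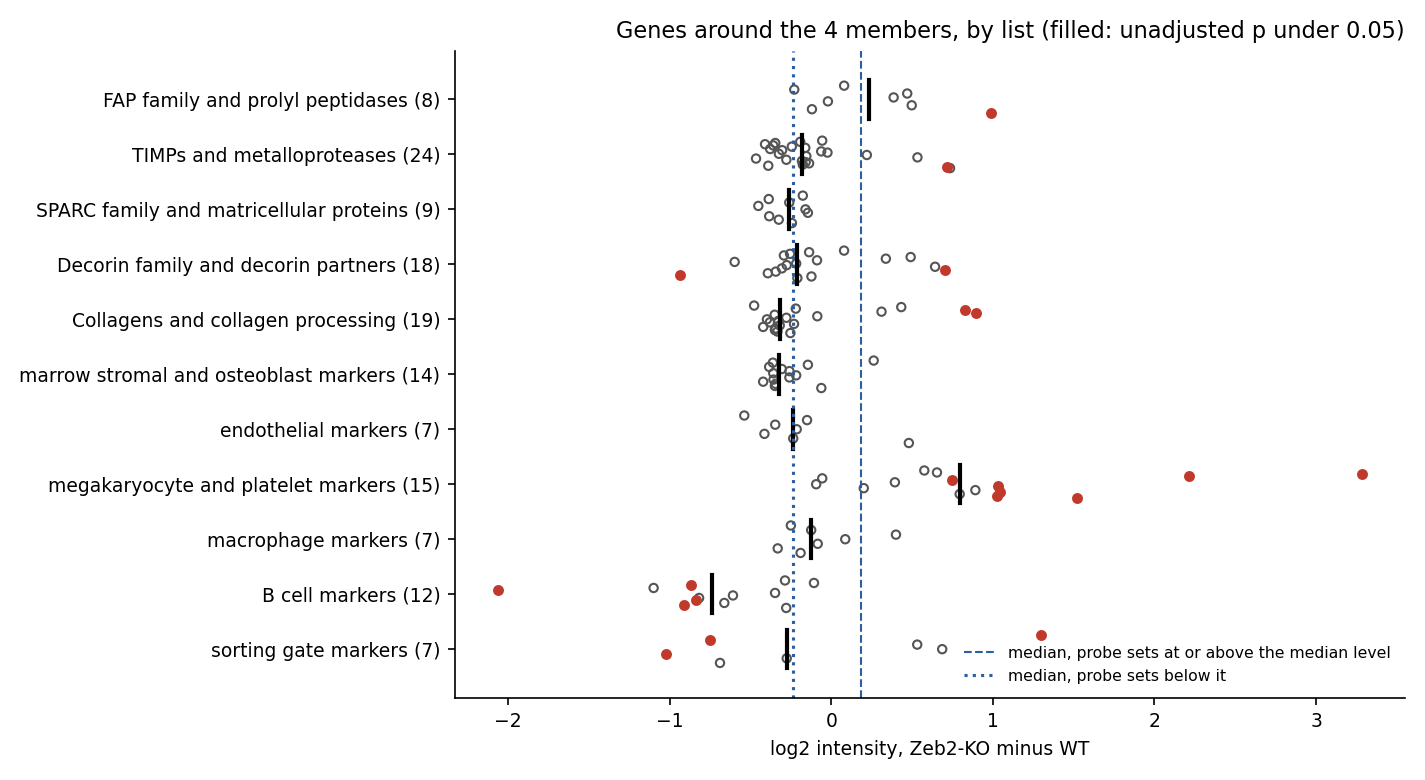
Difference in log2 intensity, Zeb2-KO minus WT, of each measured gene in 11 lists (number measured in brackets), filled where the unadjusted limma p was under 0.05, with a black bar for the list's median and blue lines for the median of all probe sets at or above (0.18, dashed) and below (-0.23, dotted) the median level. The medians of the metalloprotease, SPARC, decorin and collagen lists sit near the dotted line, although these lists hold brighter genes too. Those of the megakaryocyte and B cell lists stand to its right and left.

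Markers of cells other than stem cells were read beside the members, because in a sorted bulk sample fewer cells of a type and less RNA per cell cannot be told apart. An array intensity has no true zero, so no marker can be read as absent. Of 26 markers of marrow stromal cells and osteoblasts 14 were measured, and 0 passed an unadjusted p of 0.05 (limma) in either direction. Their median difference was -0.33, with 13 of 14 lower. The 9 below the median level had a median of -0.31 and the others -0.34, against -0.23 and 0.18 over all such probe sets. The markers had a median of -0.026 with the array interquartile range as a covariate. Their summed intensity ran from 922 to 1247 in the arrays labelled Zeb2-KO and from 1124 to 1422 in WT, with overlap. The markers with the smallest p were Col3a1, Pdpn (-0.38) and Ebf3 (-0.36), while the defining markers Cxcl12 and Lepr were not analysed here. WT replicate 3, the highest array for Sparc and Dcn, had a stromal sum of 1179, below the 1422 of WT replicate 1. The part of stromal cells in the higher Fap or lower Sparc and Dcn was not tested. Endothelial markers (7 of 16 measured) and macrophage markers (7 of 18) had 0 past that p, medians of -0.24 and -0.12, and sums that overlapped between groups, at 816 to 971 against 884 to 1116 and at 501 to 579 against 488 to 602.

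Megakaryocytes and platelets, whose granules carry Sparc, were represented by 15 of 24 markers. Of these 7 were higher and 0 lower at an unadjusted p under 0.05 (46.7%, against 7.02% of all probe sets), none passed after adjustment (limma), and the median difference was 0.79. The count was 4 higher and 0 lower without Zeb2-KO replicate 2, and 2 higher and 1 lower with the array interquartile range as a covariate. Of the 15 markers, 13 differed upward and 2 downward, with differences from -0.0935 to 3.28. Their summed intensity ran from 4116 to 7288 in the arrays labelled Zeb2-KO and from 1716 to 2468 in WT, without overlap. Such a sum is weighted to bright markers such as Pf4. The markers with the smallest p were the platelet chemokines Ppbp (3.28, SE 0.67, adjusted p = 0.333) and Pf4 (2.21, SE 0.57, adjusted p = 0.563) and the caveolar protein gene Cavin2 (1.52, SE 0.44, adjusted p = 0.602). Without Zeb2-KO replicate 1 Ppbp differed by 4.26 (limma adjusted p = 0.00807), and without WT replicate 1 Pf4 differed by 2.83 (limma adjusted p = 0.030). Pf4 had log2 intensities of 10.66, 11.32 and 10.30 in Zeb2-KO replicates 1 to 3 and 9.77, 8.75 and 7.12 in the WT replicates 1 to 3. This is the same order of the 6 arrays as in Timp3, which was seen after the values were known, whereas Ppbp and Cavin2 ordered them differently. Fap did not follow that order, and Sparc lay lower where these markers were higher. The part of megakaryocyte RNA in the Timp3 difference was not tested.

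**Figure D4:**
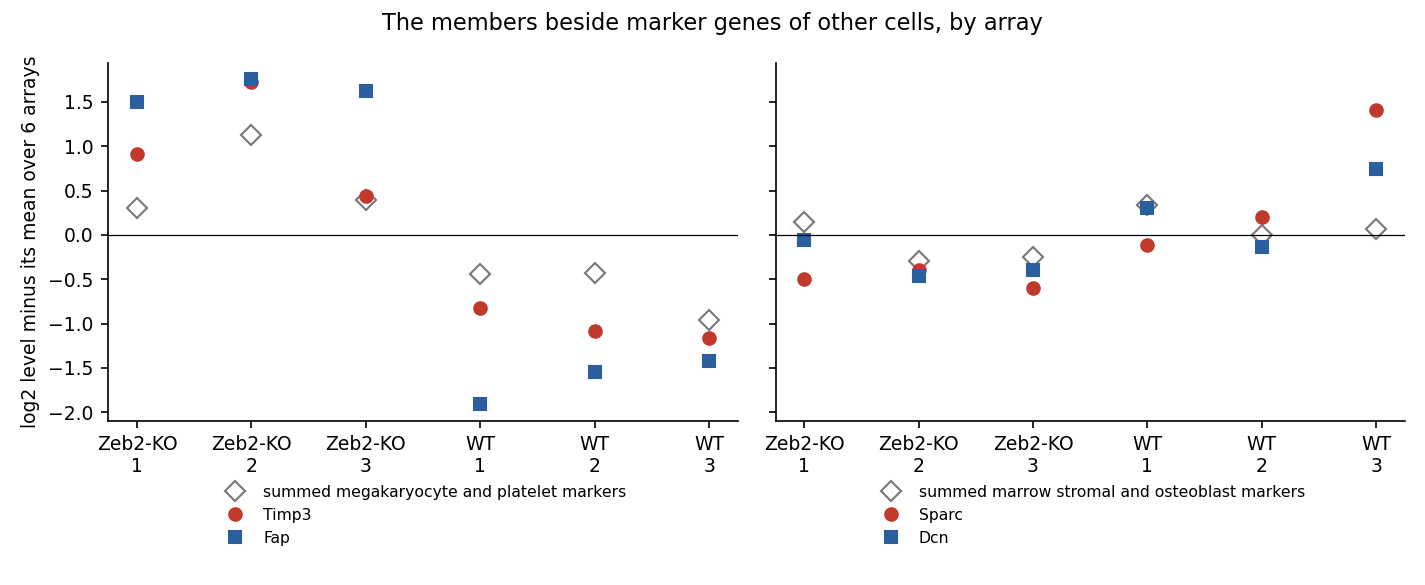
Log2 level minus its mean over the 6 arrays, for Timp3 and Fap with the summed intensity of 15 megakaryocyte and platelet markers (left) and for Sparc and Dcn with that of 14 marrow stromal and osteoblast markers (right). The megakaryocyte sum and Timp3 are both highest in Zeb2-KO replicate 2 and lowest in WT replicate 3, while WT replicate 3 is highest for Sparc and Dcn and not for the stromal sum.

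B cell markers went the other way. Of 15 listed 12 were measured, all 12 were lower, 4 of them at an unadjusted p under 0.05 (33.3%, against 1.33% of all probe sets lower, limma, none after adjustment), and the median was -0.74. The count of lower markers fell to 2 when WT replicate 1 was left out, and to 1 when Zeb2-KO replicate 2 was left out or the array interquartile range was a covariate. It rose to 6 without WT replicate 2. With the replicate number as a block it rose to 7, where 1179 of all 14610 probe sets were lower. Without both arrays with raised Y-linked signal 1 marker was higher and 4 were lower at that p. The smallest p values were those of Ms4a1, which encodes CD20 (-2.06, SE 0.45, adjusted p = 0.414), Pou2af1, a B cell coactivator (-0.87, adjusted p = 0.656), and Cd22, an inhibitory coreceptor (-0.91, adjusted p = 0.657). Their summed intensity ran from 1134 to 1813 in the arrays labelled Zeb2-KO and from 1847 to 3418 in WT. The gate list, with 7 measured genes, holds more than the Kit, Sca-1 and SLAM genes, and Ly6a (Sca-1) was not analysed here. Of the 7, Slamf1 was higher (1.30), and Cd48 (-1.02) and Ptprc, the pan-leukocyte antigen CD45 (-0.75), lower at an unadjusted p under 0.05. That is 3 of 7 against 7.02% of all probe sets, none after adjustment (limma). Slamf1 differed by 0.56 without WT replicate 1 and 0.46 with the covariate, and it did not pass that p in either, nor after quantile normalization or without Zeb2-KO replicate 2. Cd48 differed by -0.65 without Zeb2-KO replicate 3, where no gate marker was lower at that p, and 1 was without WT replicate 1. WT replicate 3 was the middle WT array for the B cell sum, at 2916. The part of B cells in the lower Sparc and Dcn was not tested.

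The genes whose profile over the 6 arrays was most like each member's were taken from 5247 single-symbol genes at or above the median level, as a description. For Fap these were Aqp9, a water and glycerol channel, Eid3 and Nt5c3, a pyrimidine nucleotidase, at root mean square differences of 0.60, 0.71 and 0.82. These values were larger than those for the other members. The measure is not scaled, so it tends to be larger for a member with a larger difference. All these genes were picked by likeness, so sharing a member's highest array tends to follow from the choice. Aqp9 differed by 2.28 (adjusted p = 0.187), Eid3 by 2.46 (adjusted p = 0.244) and Nt5c3 by 2.27 (adjusted p = 0.407, and 0.00474 without WT replicate 2, where it differed by 2.94).

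For Timp3 they were Prr11, Slc44a1, a choline transporter, and Clca3a1, a chloride channel accessory gene, at 0.35, 0.36 and 0.38. All 3 were highest in Zeb2-KO replicate 2, as Timp3 was, and differed by 1.43, 1.82 and 1.43 (adjusted p = 0.579, 0.536 and 0.407). For Sparc they were Vsig10, the noncoding host gene Snhg15 and Elovl7, a fatty acid elongase, at 0.20, 0.24 and 0.28. Each had its highest value in WT replicate 3, at 8.97, 8.71 and 8.21, and differed by -1.02, -0.62 and -0.72 (adjusted p = 0.673 for each). For Dcn they were Nlrc5, a regulator of MHC class I genes, Zc3hav1l and Gm10584, at 0.08, 0.12 and 0.13, again with WT replicate 3 highest in all 3. They differed by -0.56, -0.41 and -0.70 (adjusted p = 0.673 for each).

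**Figure D5:**
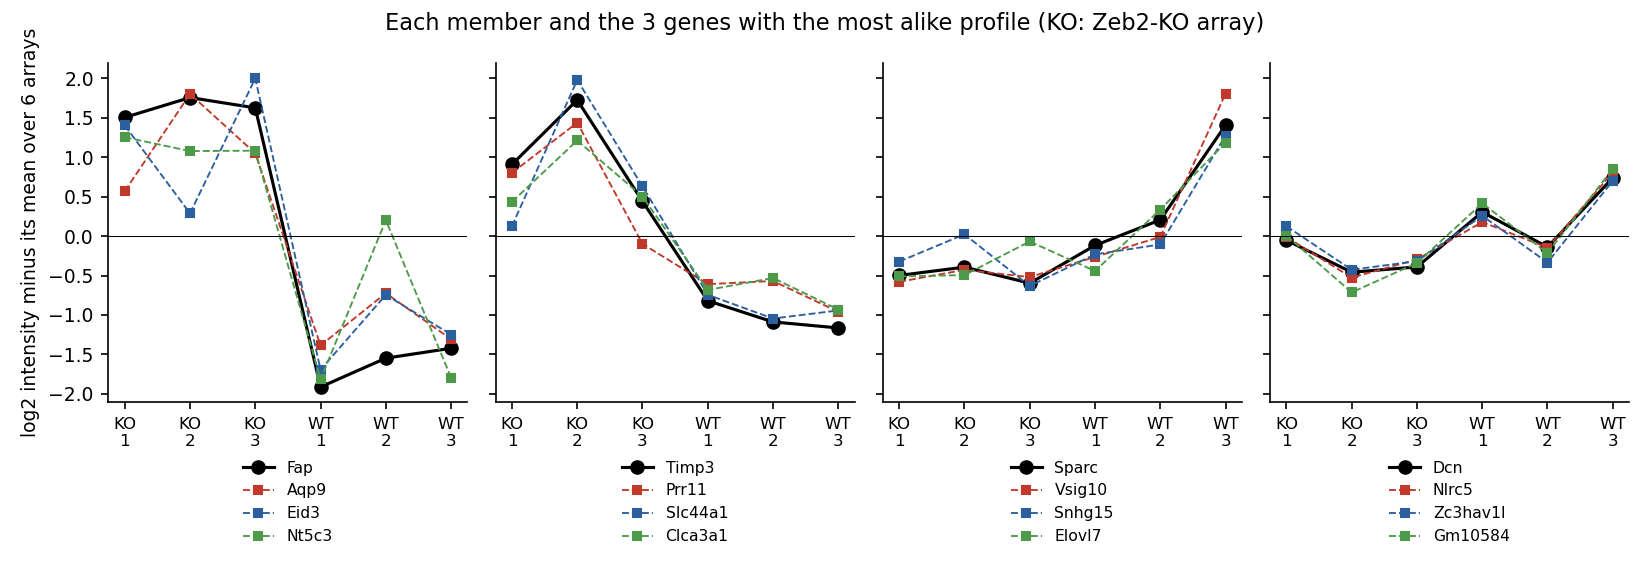
Log2 intensity minus its mean over the 6 arrays, for each member (black) and the 3 genes with the smallest root mean square difference from it (coloured), by array. The genes beside Timp3 are all highest in Zeb2-KO replicate 2, and those beside Sparc and Dcn in WT replicate 3. This tends to follow from picking them by likeness.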

How the data were processed

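Total RNA of each sorted sample was amplified and hybridised to a whole-transcript mouse array, 6 in all. The deposited values are 1 intensity per probe set and array, made with RMA per the submitters' processing notes (version, software and build not given in the sources used here). They lie on a linear scale, from 4.29 to 9972, so log2 was taken. Of 20220 probe sets, 5610 with identifiers below the first annotated one were treated as controls and left out. The other 14610 entered 1 limma fit (limma 3.58.1, R 4.3.3; lmFit and eBayes, no covariate), with Benjamini-Hochberg adjustment over all of them and a threshold of 0.05. The procedure was tested on simulated data. Of these probe sets 11229 carry 1 symbol, and those with several (766) or none (2615) were not named. Gene order came from RefSeq (GRCm38.p6), where 10324 of 10366 genes were found by gene ID.

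The 4 genes and the lists were chosen with earlier results of these data known. Lists leave the members out and use 1 probe set per gene, that with the highest mean. Named genes are the members, Zeb2, the 3 genes per list with the smallest p, nearest neighbours, fixed relatives and substrates, and the 3 most alike profiles per member. Orc4, Zeb2os, Ccdc69, Kera, Epyc and Kit were named after their values were seen. Precision is limited by the 3 arrays per group, which the labels call biological replicates. Alternatives were quantile normalization, median centring, the array interquartile range as a covariate, the replicate number as a block, a trended prior, only probe sets at or above the median level, controls included, all probe sets of a gene, and each array left out. Leaving out both arrays with high Y-linked signal was added after seeing the data.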

Additional observations from a re-analysis of the deposited data

How the results depend on the processing

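Each of the 4 members kept its direction under quantile normalization, median centring, the interquartile-range covariate and the replicate block, and with each array, or both arrays with high Y-linked signal, left out. The members were picked on this contrast, so their kept direction is a description and not a test. For Fap, Timp3 and Sparc, whose groups did not overlap, leaving out arrays could not turn the sign. The replicate block gives the same difference as the main fit by design. The other alternatives were not run for the members. Fap lay between 3.08 and 3.36, Timp3 between 1.70 and 2.34, Sparc between -1.30 and -0.54, and Dcn between -0.82 and -0.32, with the weakest Sparc value without WT replicate 3 and the weakest Dcn value with the array interquartile range as a covariate. The number of called probe sets did depend on the setting. It was 2, and it was 1 with that covariate, with brighter probe sets only, and without both arrays with raised Y-linked signal. Leaving out single arrays gave 2 to 18 (18 without WT replicate 2, 10 without WT replicate 1, 9 without WT replicate 3, 5 without Zeb2-KO replicate 1). With the replicate number as a block it was 0, and the count at an unadjusted p under 0.05 was 2595, 1416 higher and 1179 lower. Deviations from the group means correlated between same-numbered arrays at 0.36, 0.41 and 0.047 for replicates 1, 2 and 3. The array interquartile range rose from replicate 1 to 3 to 2 in both groups, and both replicate 1 arrays had raised Y-linked signal. The labels state no pairing, so the main fit did not use the numbers, and whether they mark a shared batch was not tested. The count at an unadjusted p under 0.05 was 366 higher and 384 lower with the covariate and 576 (483 higher, 93 lower) among brighter probe sets. Leaving out single arrays gave 537 (without Zeb2-KO replicate 2) to 1659 (without WT replicate 2), with 418 to 1335 higher and 119 to 426 lower. The cause was not tested.

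With the covariate the list medians were -0.21 (peptidases), 0.016 (metalloproteases), 0.046 (decorin), -0.024 (collagens), -0.026 (stromal), 0.13 (macrophage) and -0.14 (B cell). Leaving out single arrays gave medians of -0.33 to -0.13 for metalloproteases and -0.29 to -0.027 for macrophage markers. Without both arrays with raised Y-linked signal the peptidase list had 0 genes past an unadjusted p of 0.05. With the replicate number as a block, lower counts at that p rose in several lists. They were 2 (metalloproteases), 1 (SPARC), 2 (decorin), 2 (collagens), 1 (stromal), 1 (endothelial) and 7 (B cell). The higher counts of the peptidase and gate lists rose to 2. Over all probe sets the block gave 1416 higher and 1179 lower. Genes close to 0 changed sign. With the covariate Gca lay at -0.73, Lum at 0.019, Gm5174 at -0.37, Dpp8 at -0.18, Mmp9 at 0.011 and Timp4 at 0.35. Timp4 lay at 0.092 after quantile normalization, and Gm5174 at -0.0066 with median centring. Without both arrays with raised Y-linked signal Atox1 lay at 0.012, Timp4 at 0.0008 and Sparcl1 at 0.12. Leaving out single arrays gave -0.18 to 0.95 for Gca, -0.38 to 0.30 for Atox1, -0.18 to 0.17 for Gm5174, -0.38 to 0.027 for Mmp9, -0.21 to 0.15 for Timp4 and -0.31 to 0.043 for Sparcl1. Detection calls were not used here, so signal over background was not assessed.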
